A study of Mus musculus with 11 samples.

Results

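The supporting cell genes described here are 10 genes known as markers of the supporting cells of the organ of Corti, taken from 20284 genes that could be named on the array. They are Prox1, Emx2, Lfng, Trh, Slc1a3, Sparcl1, Fabp3, S100a1, Cd44 and Bace2, and they were chosen by symbol, through the RefSeq accession that the array gives for each probe. Together they had 16 probes, of which all 16 were bright enough to be tested, and 6 genes had 1 probe and 4 had several. The probe with the highest mean signal over the 11 arrays stands for each gene, and the others are given where they differ. All levels are log2 signals, so that a difference of 1 is a 2-fold change, and a level was never compared between genes.

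The microarrays compared otospheres (OS), which are floating spheres grown from dissociated cochlear cells, with the cochlear sensory epithelium (CSE) they derive from and with embryonic stem cells (ESCs). Both OS and CSE came from ICR mice at postnatal day 1, and a preparation used 20 cochleae from 10 mice. The OS had gone through 1 passage, each culture lasting 4 or 5 days, in medium with 10 ng/ml bFGF and 50 ng/ml IGF1, and were filtered to obtain solid spheres. The CSE was not cultured, and the ESCs were the lines G4-2 (ES1) and D3 (ES2), each at passage 13 and with LIF, so that each ESC sample is 1 line and its mouse strain is not given in the sources used here. For each array 50 or 100 ng of RNA was used, and the sources do not say which. There were 6 OS, 3 CSE and 2 ESC arrays. OS1 and OS2 differed by 1.10 times the noise between spots of the same probe among probes above a log2 signal of 8, and by 0.988 times above 11, OS4 and OS5 by 0.477 times above 8, and each of the remaining 17 same-group pairs by at least 1.95 times. Each of these pairs was therefore averaged into 1 sample (the OS1/OS2 mean and the OS4/OS5 mean), which leaves 4 OS, 3 CSE and 2 ESC samples. Slide 1 held ES1, OS1 to OS3, CSE1 and CSE2, and slide 2 held ES2, OS4 to OS6 and CSE3. Since the labels do not say whether samples came from separate cultures or dissections, p-values measure only the spread between these samples.

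Supporting cells surround the hair cells of the organ of Corti, keep the ionic and transmitter balance around them, and in newborn mice can re-enter the cell cycle or turn into hair cells. Their identity is held in part by Notch signaling from the hair cells and by transcription factors that oppose the hair cell program. Pillar and Deiters cells, inner phalangeal cells and the cells of the greater epithelial ridge share some markers and differ in others, and several of the markers are also made by glia or by connective tissue cells. In bulk samples such as these, fewer cells of a type and less RNA per cell cannot be told apart.

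In OS, 4 of the 10 genes were lower than in CSE by the limma test (adjusted p under 0.05), namely Prox1, Emx2, Lfng and Trh, and 0 were higher (1 at an unadjusted p under 0.05, S100a1, as were 10.4% of all probes). Over all 47996 tested probes, 6.19% were called lower and 4.84% higher in this comparison. The median difference of the 10 genes was -1.57, against 0.024 over all tested probes. Most marker lists of other cell types, given below, had a median further from 0 than this. The other 6 genes did not pass the test in either direction, and their differences ran from -1.78 for Slc1a3 to 1.45 for S100a1. In CSE all 10 genes were well above background on at least 1 array, in OS all but Prox1, and in ESCs all but Prox1 and Emx2. By the samples alone, 5 of the 10 genes were lower in every OS sample than in every CSE sample, the 4 above and Sparcl1, and 12.7% of all probes with a value in each of these samples were.

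**Figure D1:**
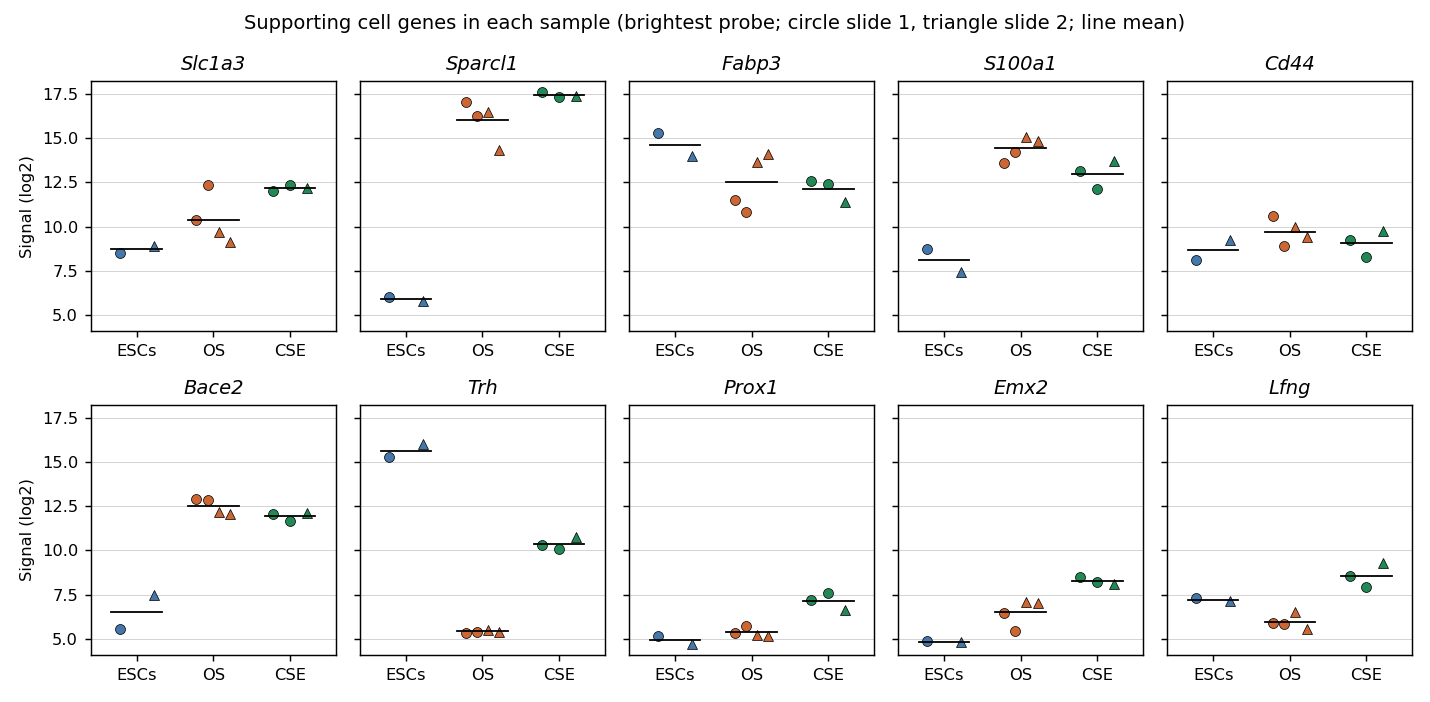
Log2 signal of the brightest probe of each of the 10 supporting cell genes (vertical axis) in the ESC, OS and CSE samples (horizontal axis), with circles for slide 1, triangles for slide 2 and a line at the mean of each group. Prox1, Emx2, Lfng and Trh lie lower in the 4 OS samples than in the 3 CSE samples, while Slc1a3 and Fabp3 are spread widely among the OS samples.

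The sequences upstream of the 4 genes that were lower in OS are shown because these genes moved in one direction, and 3 of them are regulators of supporting cell fate or signaling. Each run is the 250 bases before the RefSeq transcription start (GRCm38.p6), written 5′ to 3′ on the strand of the gene, and for Prox1, which has several starts, the one farther upstream is shown. Capitals mark motifs that were searched on both strands. The TATA box was read as TATAAA and the CCAAT box by its name. For the GC box the letters were GGGCGG, and for RBPJ, the DNA-binding effector of Notch, they were TGGGAA. A SOX core was read as ACAAAG and a CRE, the cyclic AMP response element, as TGACGTCA. In the Emx2 run a pair of overlapping GC boxes forms the longest stretch of capitals.
Prox1, chr1:190170828-190171077, minus strand: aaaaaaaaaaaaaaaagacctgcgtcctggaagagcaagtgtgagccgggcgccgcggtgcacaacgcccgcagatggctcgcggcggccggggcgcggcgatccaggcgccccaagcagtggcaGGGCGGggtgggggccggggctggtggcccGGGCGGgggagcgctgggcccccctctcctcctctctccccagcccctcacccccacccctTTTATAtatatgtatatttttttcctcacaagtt
Emx2, chr19:59458440-59458689, plus strand: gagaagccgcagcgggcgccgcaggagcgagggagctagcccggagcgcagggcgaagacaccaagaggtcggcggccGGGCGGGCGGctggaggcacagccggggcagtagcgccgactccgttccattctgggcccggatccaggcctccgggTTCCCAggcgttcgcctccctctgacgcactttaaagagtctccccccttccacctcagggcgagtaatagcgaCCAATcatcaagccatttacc
Lfng, chr5:140607091-140607340, plus strand: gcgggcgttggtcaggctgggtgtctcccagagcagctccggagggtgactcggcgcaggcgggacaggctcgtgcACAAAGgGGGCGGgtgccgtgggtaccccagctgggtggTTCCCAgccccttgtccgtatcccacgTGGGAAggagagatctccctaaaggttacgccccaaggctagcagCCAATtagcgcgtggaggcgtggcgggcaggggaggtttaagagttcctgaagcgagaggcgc
Trh, chr6:92244651-92244900, minus strand: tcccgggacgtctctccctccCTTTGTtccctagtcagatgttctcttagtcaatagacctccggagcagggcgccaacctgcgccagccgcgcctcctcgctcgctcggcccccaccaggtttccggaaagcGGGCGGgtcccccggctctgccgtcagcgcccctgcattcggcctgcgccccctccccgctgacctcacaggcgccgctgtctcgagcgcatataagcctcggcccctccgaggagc

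Of the 10 genes, 8 had an upstream sequence in the RefSeq table used here, in 9 windows, and Bace2 and Sparcl1 are named only. Emx2 and Lfng held the RBPJ core, Emx2 at 95 bases and Lfng at 135 and 108 bases before the start, and so did the other Prox1 window, which is not shown, at 240 bases, and Cd44, which was not lower in OS. Of 32851 upstream windows of the same length, 21.6% held that core. The GC box, present upstream of all 4 genes shown, was also in the other Prox1 window and upstream of Slc1a3, which was not called lower in OS. It was in 32.7% of windows. A SOX core was found upstream of Lfng and Trh and in the other Prox1 window, and in 16.5% of windows, a CCAAT box upstream of Lfng, Emx2 and Slc1a3 and in 33.8%, a TATA box in the Prox1 sequence shown and upstream of Slc1a3 and in 12.4%, and the CRE in 0 of the 9 windows and in 1.55% of all windows. The GC content was 64.8% for Prox1, 67.2% for Emx2, 66.0% for Lfng and 68.8% for Trh, against a median of 52.4%. It was 56.0% in the other Prox1 window. Among the genes not called lower in OS it was 64.8% for Fabp3, 61.6% for S100a1, 56.4% for Cd44 and 44.8% for Slc1a3. The S100a1 and Fabp3 windows held none of the motifs searched. These matches describe the letters of the windows only.

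Prox1 encodes a homeobox transcription factor that marks pillar and Deiters cells. Its log2 signal was 7.20, 7.57 and 6.66 in CSE1, CSE2 and CSE3. In OS it was 5.34 for the OS1/OS2 mean, 5.75 in OS3, 5.25 for the OS4/OS5 mean and 5.14 in OS6, and it was 5.16 and 4.74 in ES1 and ES2. Every CSE sample was thus above every OS and ESC sample, and 0 of the 6 OS arrays and 0 of the 2 ESC arrays had the probe well above background. For this reason only a bound can be given, with CSE at least 3.40-fold higher than OS (limma, adjusted p = 0.00269) and at least 3.37-fold higher than ESCs (adjusted p = 7.69e-04). The floor is, on each dim array, the higher of the probe's own value and the lowest signal among probes well above background. These folds hold for the offset used and leave out the spread between samples. With an offset of 50 the difference between OS and CSE was -1.22. On each slide every OS sample was below every CSE sample, with 1 CSE sample on slide 2.

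Emx2, a homeobox transcription factor that controls hair bundle orientation and the size of the sensory epithelium, was also highest in CSE. Its signal was 8.49, 8.21 and 8.08 in the 3 CSE samples. It was 6.46 for the OS1/OS2 mean, 5.46 in OS3, 7.09 for the OS4/OS5 mean and 7.05 in OS6, and 4.89 and 4.80 in the ESCs. The 3 groups did not overlap, with OS between ESCs and CSE. The difference between OS and CSE was -1.75 ± 0.37 (SE) on the log2 scale (limma, adjusted p = 0.0175). In ESCs 0 of 2 arrays were well above background. The measured difference from ESCs was 1.67 for OS (limma, adjusted p = 0.0163) and 3.42 for CSE (adjusted p = 5.50e-04). With the floor described for Prox1, OS was 2.18-fold and CSE 7.32-fold above ESCs. With an offset of 50 the differences were 1.03 and 2.44. The call between OS and CSE was lost without any 1 of the CSE samples, with adjusted p of 0.0799 without CSE1, 0.0505 without CSE2 and 0.0527 without CSE3, and with the processed signal it was 0.0642. The call between OS and ESCs was lost without ES1 (adjusted p = 0.0668) or ES2 (0.0804).

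Lfng encodes Lunatic fringe, a glycosyltransferase that modifies the Notch receptor and is made by supporting cells but not by hair cells. In CSE its signal was 8.55, 7.91 and 9.28. In OS it was 5.92 for the OS1/OS2 mean, 5.83 in OS3, 6.50 for the OS4/OS5 mean and 5.54 in OS6, and in the ESCs it was 7.29 and 7.14. The OS samples were the lowest of the 3 groups and none of the groups overlapped. The difference between OS and CSE was -2.63 ± 0.33 (SE), a 6.20-fold lower signal in OS (limma, adjusted p = 0.00154), at -2.36 within slide 1 and -3.26 within slide 2. OS was also below ESCs, by 2.40-fold (adjusted p = 0.0355), and CSE was above ESCs by 2.58-fold (adjusted p = 0.0308). Both of these smaller differences lost their call under several settings, among them leaving out ES1 (adjusted p = 0.147 for OS against ESCs and 0.0894 for CSE against ESCs).

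Trh encodes the precursor of thyrotropin-releasing hormone. It is one of the genes that the study itself lists from these arrays, as is Sparcl1, so their direction is not independent of that choice. The signal of Trh was 15.26 and 16.03 in ES1 and ES2, and 10.31, 10.10 and 10.74 in CSE. It was 5.36 for the OS1/OS2 mean, 5.42 in OS3, 5.53 for the OS4/OS5 mean and 5.39 in OS6. The 4 OS samples lay close together and far under both other groups, and the probe was well above background on 2 of the 6 OS arrays. OS was 31.1-fold below CSE (a difference of -4.96 ± 0.22 (SE), limma, adjusted p = 1.44e-05), and CSE was 38.4-fold below ESCs (adjusted p = 4.35e-06). The fold between OS and CSE depends on the offset added to such dim signals, and the difference ran from -6.61 to -4.15 over 21 alternative settings with the call kept in each. Trh was the single gene of the 10 that was lower in CSE than in ESCs by the test.

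**Figure D2:**
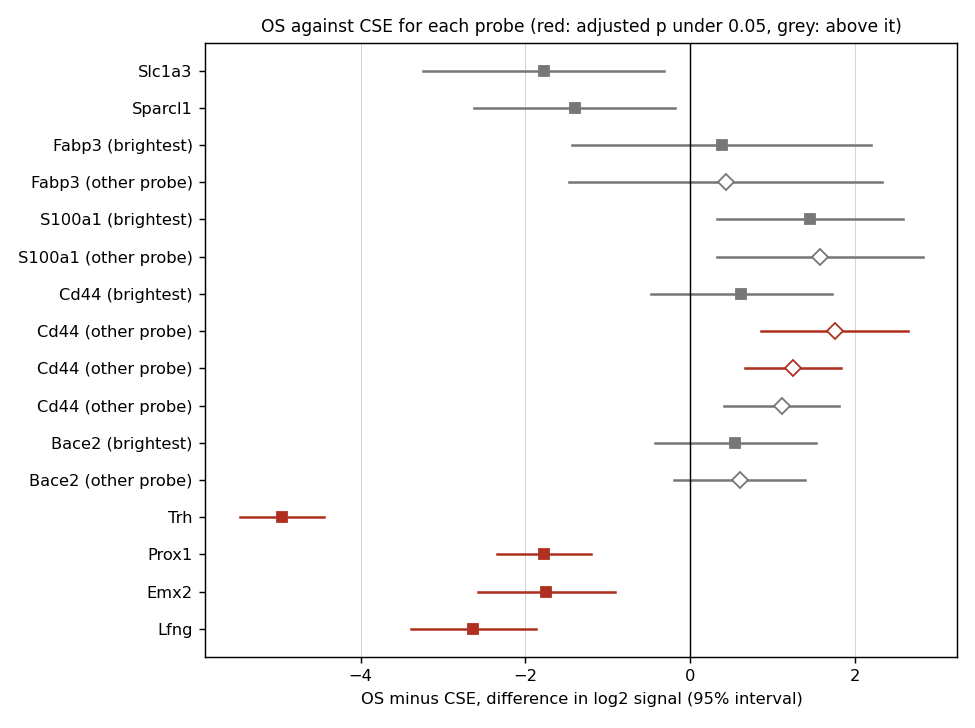
Difference in log2 signal between OS and CSE (horizontal axis) with its 95% interval for the 16 probes of the 10 genes, filled squares for the brightest probe and open diamonds for other probes of the same gene. Red marks an adjusted p under 0.05. Trh has the most negative difference, -4.96, and 2 of the 4 Cd44 probes lie above 0 in red.

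Among the 10 genes, Fabp3, Slc1a3 and Sparcl1 had the widest spread between OS samples, with an SD of 1.59, 1.39 and 1.16 (n = 4), against 0.08 for Trh to 0.76 for Emx2 in the others. Trh and Prox1 were near background in OS, where the spread depends on the offset, so their SDs do not compare with the rest. Slc1a3 encodes the glutamate transporter GLAST, which clears glutamate around the inner hair cells. Its signal was 12.00, 12.35 and 12.17 in CSE and 8.54 and 8.93 in ESCs. In OS it was 10.38 for the OS1/OS2 mean, 12.34 in OS3, 9.69 for the OS4/OS5 mean and 9.15 in OS6. OS3 alone lay within the CSE range, and the other OS samples lay between CSE and ESCs. The difference between OS and CSE was -1.78 ± 0.64 (SE) and did not pass (limma, adjusted p = 0.130), while without OS3 it was -2.43 and passed (adjusted p = 0.00282). CSE was 10.8-fold above ESCs (adjusted p = 0.00925), a call lost without ES1 (adjusted p = 0.0544), and the difference between OS and ESCs was 1.65 (adjusted p = 0.133).

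Sparcl1 encodes a secreted matricellular protein of the SPARC family. Its signal was 17.59, 17.34 and 17.39 in CSE, against 6.03 and 5.81 in ESCs. In OS it was 17.03 for the OS1/OS2 mean, 16.28 in OS3, 16.49 for the OS4/OS5 mean and 14.36 in OS6. Each OS sample was below each CSE sample and far above the ESCs. OS exceeded ESCs by 10.12 ± 0.61 (SE) on the log2 scale, or 1110-fold (limma, adjusted p = 1.08e-05), and CSE by 11.52 (adjusted p = 7.30e-06). The difference between OS and CSE, -1.40 ± 0.54 (SE), did not pass the test (adjusted p = 0.158), and without OS6, its lowest sample, it was -0.84.

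Markers of mesenchyme differed between the OS samples too, and their part in the values of Slc1a3 and Sparcl1 was not tested. Over 10 mesenchyme genes the mean log2 signal was 11.67 for the OS1/OS2 mean, 12.33 in OS3, 10.52 for the OS4/OS5 mean and 8.50 in OS6, against 12.28 to 12.76 in CSE and 6.67 to 7.06 in ESCs. OS3, with the highest Slc1a3 of the OS samples, was also the highest for this list, and OS6, with the lowest Sparcl1 and Slc1a3, was the lowest. Apart from OS6, Sparcl1 did not keep the order of the list. Its highest OS value was the OS1/OS2 mean (17.03), and OS3 (16.28) lay under the OS4/OS5 mean (16.49). Postn, which encodes the matrix protein periostin and belongs to this list, was among the genes most like Sparcl1 (r = 0.995 over 9 samples). This r includes the gap to ESCs, with OS above ESCs by 10.12 for Sparcl1 and 5.84 for Postn, and does not describe the OS samples alone. Between OS and CSE, 1 of the 10 mesenchyme genes passed the test, Col1a1, at -4.06 ± 0.82 (SE) (limma, adjusted p = 0.0145). Of all probes, 6.19% were called lower in OS. The median difference of the 10 mesenchyme genes was -1.67. Over 9 glial genes the mean signal was 8.92 for the OS1/OS2 mean, 8.25 in OS3, 7.67 for the OS4/OS5 mean and 7.55 in OS6, against 9.99 to 10.52 in CSE. Of these 9 genes, 6 were lower in OS than in CSE, among them Fabp7 at -6.94 and S100b at -4.11, and Mbp was higher at 1.91. Over all probes 6.19% were called lower and 4.84% higher.

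**Figure D3:**
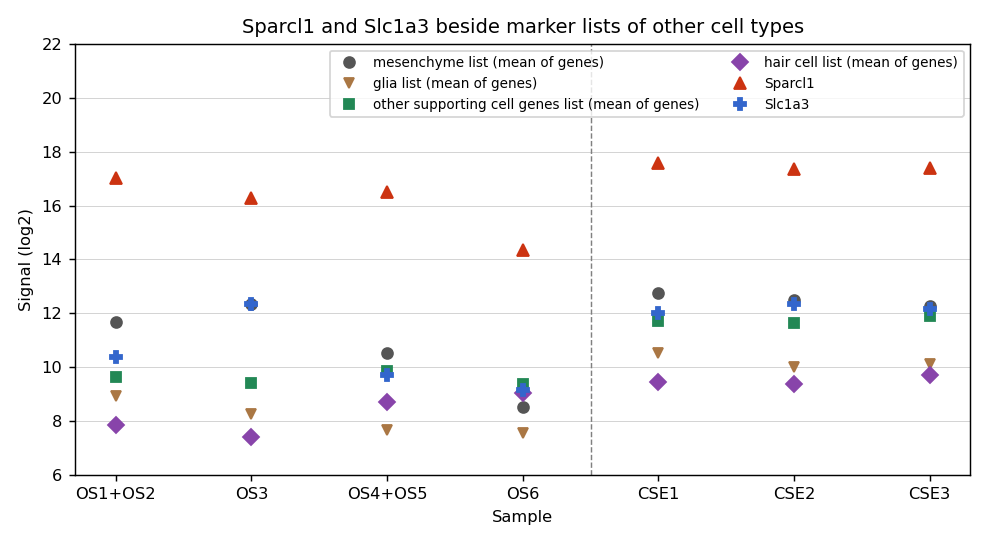
Log2 signal (vertical axis) of Sparcl1 and Slc1a3 and the mean log2 signal over 4 marker lists in the OS samples (left of the dashed line) and the CSE samples (right). OS6 has the lowest Sparcl1, Slc1a3 and mesenchyme values among the OS samples, and the 30 other supporting cell genes lie between 9.38 and 9.87 in all 4 OS samples.

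Fabp3 encodes a cytoplasmic fatty acid-binding protein. Its signal was 15.28 and 13.97 in ES1 and ES2, and 12.61, 12.42 and 11.39 in CSE. In OS it was 11.53 for the OS1/OS2 mean, 10.83 in OS3, 13.64 for the OS4/OS5 mean and 14.11 in OS6. The OS samples of slide 1 were thus below the CSE samples of that slide, with a difference of -1.34, and those of slide 2 were above the single CSE sample there, with a difference of 2.48. Over all samples the difference was 0.39 ± 0.80 (SE) and did not pass (limma, adjusted p = 0.885). Without OS6 its sign turned, to -0.14, and with slide as a block it was 0.29 (adjusted p = 0.911). The second Fabp3 probe followed the same order, with 11.05, 10.05, 13.01 and 13.66 in the OS samples and a difference between OS and CSE of 0.43 (adjusted p = 0.875). Between CSE and ESCs the difference was -2.48, which did not pass (adjusted p = 0.0863).

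**Figure D4:**
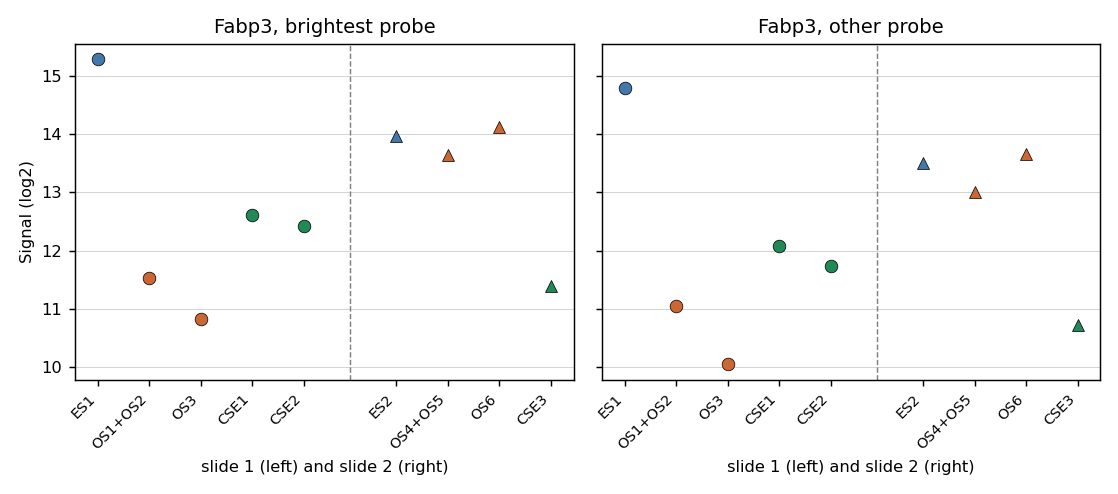
Log2 signal of the 2 Fabp3 probes (vertical axis, 1 panel each) in each sample (horizontal axis), with slide 1 left and slide 2 right of the dashed line, ESCs in blue, OS in orange and CSE in green. On slide 1 both OS samples are below both CSE samples, and on slide 2 both OS samples are above CSE3.

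S100a1, Bace2 and Cd44 had a higher mean in OS than in CSE, although for the brightest probe of each the difference did not pass the test. S100a1 encodes a calcium-binding protein found in supporting cells and inner hair cells of the young cochlea. Its signal was 13.61 for the OS1/OS2 mean, 14.23 in OS3, 15.06 for the OS4/OS5 mean and 14.87 in OS6, and 13.14, 12.12 and 13.72 in CSE. In ESCs it was 8.77 and 7.46. OS overlapped CSE through OS1 and OS2, which lay under CSE3, but within each slide both OS samples were above the CSE samples, by 1.30 on slide 1 and 1.25 on slide 2. The overall difference was 1.45 ± 0.50 (SE), with an adjusted p of 0.110 (limma), and the other probe gave 1.58 (adjusted p = 0.117). Relative to ESCs the gene was 80.6-fold higher in OS (adjusted p = 8.14e-05) and 29.4-fold higher in CSE (adjusted p = 4.11e-04).

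Bace2 encodes an aspartyl protease related to beta-secretase. Its signal was 12.92 for the OS1/OS2 mean, 12.87 in OS3, 12.17 for the OS4/OS5 mean and 12.07 in OS6, against 12.07, 11.66 and 12.13 in CSE. The ESC samples had 5.56 in ES1 and 7.47 in ES2, and lay below all other samples. Each is 1 array of 1 line on its own slide, so line and slide cannot be told apart. OS and CSE overlapped, and their difference of 0.55 (95% interval -0.43 to 1.53) did not pass the test (limma, adjusted p = 0.572). Against ESCs, OS was 63.6-fold higher (adjusted p = 5.12e-05) and CSE 43.4-fold higher (adjusted p = 1.13e-04). A dimmer Bace2 probe was not well above background in ESCs (5.14 in ES1 and 5.03 in ES2). With the floor described for Prox1 it gave 7.44-fold for OS and 4.92-fold for CSE over ESCs.

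Cd44 encodes the hyaluronan receptor, a surface protein found on pillar cells and on many proliferating cells. Its 4 probes, which the array assigns to the same transcript, did not give the same result between OS and CSE. For the brightest, A_55_P2064043, the signal was 10.59 for the OS1/OS2 mean, 8.93 in OS3, 9.97 for the OS4/OS5 mean and 9.42 in OS6, against 9.25, 8.30 and 9.76 in CSE and 8.12 and 9.27 in ESCs. All 3 groups overlapped, and the difference between OS and CSE was 0.62 ± 0.48 (SE) (limma, adjusted p = 0.569). For A_55_P2166501 the signal was 10.17, 8.54, 9.69 and 9.42 in the OS samples in the same order, against 7.69, 7.49 and 7.93 in CSE and 6.75 and 7.82 in ESCs. Here every OS sample was above every CSE and ESC sample. This probe rose in OS by 1.76 ± 0.39 (SE) over CSE (adjusted p = 0.0222) and by 2.17 over ESCs (adjusted p = 0.00616). The probe A_55_P2166488 rose by 1.25 over CSE (adjusted p = 0.0149), and A_55_P2166486 had a difference of 1.11, just outside the threshold (adjusted p = 0.0540). In ESCs neither of these probes was well above background. With the floor described for Prox1, OS was 3.67-fold and 2.65-fold above ESCs. With the second brightest probe in place of the brightest, 1 of the 10 genes was called higher in OS than in CSE, which is Cd44.

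**Figure D5:**
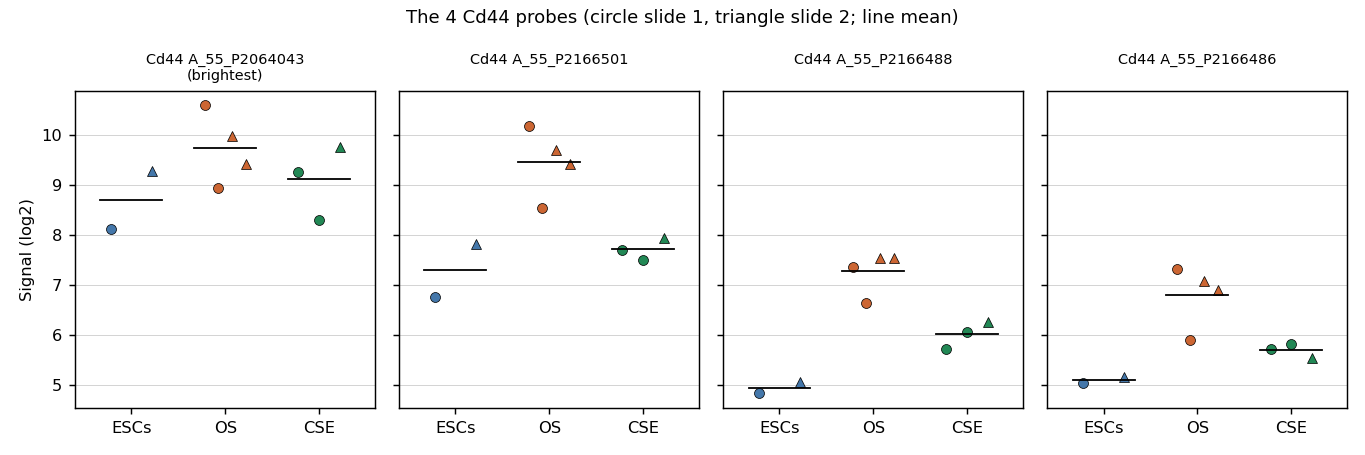
Log2 signal (vertical axis) of each of the 4 Cd44 probes (1 panel each, brightest first) in the ESC, OS and CSE samples (horizontal axis), with circles for slide 1, triangles for slide 2 and a line at the mean of each group. The groups overlap for the brightest probe, and for the other 3 all OS samples lie above all CSE samples.

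Against ESCs, 4 of the 10 genes were higher in OS (S100a1, Bace2, Emx2 and Sparcl1) and 2 were lower (Lfng and Trh), where 12.1% and 15.6% of all tested probes were. The median difference of the 10 genes was 1.34, against -0.035 over all probes. In CSE, 7 of the 10 were higher than in ESCs (Prox1, Emx2, Lfng, Slc1a3, Sparcl1, S100a1 and Bace2) and 1 lower (Trh), where 13.2% and 15.6% of all probes were, and the median was 2.80 against -0.065. Both of these comparisons share the ESC samples. Over the 3 groups together, 8 of the 10 genes differed by the F-test of limma, all but Cd44 and Fabp3, and 33.7% of all probes did. The other 3 Cd44 probes passed this test (adjusted p of 0.00642, 8.41e-04 and 0.00975), so that with second brightest probes 9 of the 10 genes did.

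Between OS4-6 and OS1-3, the OS arrays of slide 2 and of slide 1, 0 of the 10 genes passed the test in either direction, against 0.0771% of all probes (37 of 47996), and 3 did at an unadjusted p under 0.05 (Fabp3, Slc1a3 and Emx2), as did 11.2% of all probes. The slide and the preparation of these OS cannot be told apart. Fabp3 had the largest difference of the 10, 2.69 ± 0.54 (SE) higher in OS4-6 (limma, adjusted p = 0.0915). Slc1a3 differed by -1.94 (adjusted p = 0.183), Sparcl1 by -1.23 (adjusted p = 0.522) and Bace2 by -0.78 (adjusted p = 0.708), while Emx2 was 1.11 higher in OS4-6 (adjusted p = 0.192) and S100a1 1.05 higher (adjusted p = 0.599). The remaining 4, Prox1, Lfng, Trh and the brightest Cd44 probe, differed by -0.35 to 0.15. Without OS1 and OS2, OS3 alone stood for OS1-3, and the difference of Slc1a3 was -2.92. Without OS4 and OS5, OS6 alone stood for OS4-6, and the difference of Sparcl1 was -2.29, with OS6 its lowest OS sample. In both fits the single sample was assumed to vary like the other samples, so these values do not test a difference between the slides. With each array counted as its own sample, Fabp3 passed at 2.50 (limma, adjusted p = 0.00921), and 1555 probes were called higher and 1083 lower. That setting counts OS1 and OS2, and OS4 and OS5, apart although each pair differed by about the spot noise or less. Its p-values may thus treat repeats of 1 sample as separate samples.

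Other genes of the supporting cell program were compared through a list of 30. Of these, 17 were lower in OS than in CSE and 13 did not pass the test, against 6.19% of all probes called lower, and the median difference was -2.52, against 0.024 over all probes. In the Notch pathway, the effector Hes5 had a difference of -7.44 (6.05 ± 0.60 (SD, n = 4) in OS and 13.49 ± 0.44 (SD, n = 3) in CSE, limma, adjusted p = 2.52e-05), Heyl had a difference of -3.79, Hey1 of -3.14, Hey2 of -2.34 and the ligand Jag1 of -2.70, all past the threshold. Hes1, a further Notch target, had a difference of 0.72 and did not pass (adjusted p = 0.255). Of the 4 genes in the list for proteins of the tectorial membrane and related matrices, which supporting cells secrete, 3 were lower, with Tectb at -5.86 (adjusted p = 0.00248), Otog at -4.13 (adjusted p = 6.35e-04) and Tecta at -2.66, and Otogl had a difference of -2.25 that did not pass (adjusted p = 0.247). The gap junction genes Gjb6 and Gjb2 had differences of -4.13 and -1.78, Fgfr3, a receptor of Deiters and pillar cells, of -3.93, and the progenitor marker Lgr5 of -2.72, each past the threshold. Sox2, needed for prosensory fate, had a difference of -2.79 (adjusted p = 4.48e-04), whereas Sox9 had a difference of -0.69 (adjusted p = 0.320) and Cdkn1b, which encodes the cell cycle inhibitor p27Kip1, of -0.56 (adjusted p = 0.212). Against ESCs, 16 of the 30 genes were higher in OS and 3 lower (12.1% and 15.6% of all probes), and 19 were higher in CSE and 2 lower (13.2% and 15.6%).

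Marker lists of other cell types also differed between OS and CSE, and their part in the values above was not tested. Their counts stand against 6.19% of all probes called lower and 4.84% called higher in OS. The median difference between OS and CSE was -1.51 for hair cell, -1.67 for mesenchyme and -2.01 for glial genes. It was -2.36 for endothelial, -2.65 for blood and macrophage, -4.26 for neuronal and -0.09 for pluripotency genes. For the 10 supporting cell genes it was -1.57. Of 16 hair cell genes, 8 were lower in OS than in CSE, among them Pvalb (-3.80), Atoh1 (-3.19) and Myo7a (-2.50), and 1, Ocm, was higher at 3.43. The mean of this list was 7.84 for the OS1/OS2 mean and 7.42 in OS3, against 8.69 for the OS4/OS5 mean and 9.02 in OS6. Neuronal genes were lower for 8 of 10, with Stmn2 at -7.77, Nefl at -5.54 and Nefm at -4.71, and 5 of 8 endothelial genes were lower, among them Cldn5, Esam and Tie1, the last 2 on 0 of 6 OS arrays well above background. Of 8 blood and macrophage genes, 5 were lower, with Hbb-bt well above background on 0 of 6 OS arrays and on all 3 CSE arrays. The list of 6 pluripotency genes had a mean of 13.34 to 13.42 in ESCs, 6.75 to 7.41 in OS and 7.39 to 8.02 in CSE, and 1 of them, Esrrb, was lower in OS than in CSE, at -3.57 (adjusted p = 0.00405). Of the 6, 5 were lower than in ESCs both in OS and in CSE, where 15.6% of all probes were in each comparison. The Nanog probe used went the other way, at 1.46 in OS and 1.67 in CSE, and did not pass (limma, adjusted p = 0.105 and 0.0778). The study, which added ESC data of other series, lists Nanog among the genes high only in ESCs. The probe used here conflicts with that and should not be read as the level of the gene. No other Nanog probe was compared.

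Genes with a pattern most like each of the 10 were found among 18553 genes by Pearson's correlation of the log2 signal over the 9 samples, which share slides and group means, so that r describes the pattern only. Prox1 was most like Slc24a2 and Gjc3 (both r = 0.979), Emx2 most like Slc7a14 (0.993) and Sostdc1 (0.992), Lfng most like Ccdc60 (0.983) and Dupd1 (0.981), and Trh most like Sptbn4 (0.992) and Elp3 (0.991). Slc1a3 had Hlf (0.980) among its closest genes, Sparcl1 was closest to Slc2a10 (0.996) and Postn (0.995), and Fabp3 to Osbpl1a (0.949) and Pgam5 (0.943). For S100a1 they were Ccng2 (0.996) and Car9 (0.994), for Bace2 Ifi27 (0.993) and Tha1 (0.992), and for Cd44 Oit3 (0.942) and Abhd13 (0.935). Among the 10 genes themselves, r was 0.95 between Bace2 and Sparcl1, 0.90 between S100a1 and Bace2, 0.84 between Prox1 and Slc1a3, and -0.92 between S100a1 and Trh.

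On the arrays as a whole, between 55.1% and 71.6% of the spots of an array were well above background, and 0 spots were marked as saturated. With slide as a block, the calls between OS and CSE were the same for all 10 genes.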

How the data were processed

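Cy3-labelled RNA was hybridized to 11 single-colour Agilent arrays, and the deposited scanner files hold the median intensity and median local background of each spot, made by the authors with Feature Extraction 10.7.3.1. The authors' own log2 table and the processed intensity served as alternatives. The median intensity was background-corrected by normexp with an offset of 16, quantile-normalized, taken to log2 and averaged over spots of a probe, without spots flagged as outliers. Probes 10% brighter than the 95th percentile of 308 negative controls on at least 2 arrays were kept (47996 of 55681). Differences were tested with limma 3.58.1 (R 4.3.3) in 1 fit of the 3 groups, with Benjamini-Hochberg adjustment over all kept probes and a threshold of 0.05. For OS4-6 against OS1-3 the OS samples were split in that fit. Intervals are 95%. Gene names came from RefSeq accessions, which named 26762 probes. The 10 genes and all gene lists were chosen with earlier results of these data known. The named genes are all 10, the 3 genes of each other list with the largest change each way past the threshold between OS and CSE, and the 2 genes most correlated with each of the 10, and further genes of the supporting cell list, and Nanog, were named after their values were seen. Results for 2 genes that this rule names are not reported here. The fit was tested on simulated data. The number of arrays limits the precision.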

Additional observations from a re-analysis of the deposited data

Results flagged for a closer look

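Fabp3 was singled out because its difference between OS and CSE had opposite signs on the 2 slides in every sample. On slide 1 the OS samples had a mean log2 signal of 11.18 and CSE of 12.52, and on slide 2 OS had 13.87 and the single CSE sample 11.39. The difference on slide 2 less that on slide 1 was 3.82 ± 0.49 (SE) for the brightest probe and 3.97 ± 0.64 (SE) for the other, each with a limma adjusted p = 0.695 over all probes. Neither passed the threshold after adjustment, and slide 2 held 1 CSE sample. In the groups of 4 OS samples, none of the 16 probes had a sample far enough from the others to stand apart by Dixon's criterion.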

How the results depend on the processing

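Of 21 alternatives for each comparison of groups, the calls of Prox1, Lfng and Trh between OS and CSE were kept in all, and that of Emx2 was lost in 4. Over all genes and comparisons, 771 values kept their direction and their side of the threshold, 21 lost a call, 17 gained one and 11 turned their sign. The turned values were those of genes that had not passed. Between OS4-6 and OS1-3, Trh turned with the processed signal (-0.04) and with median scaling (-0.05), and Cd44 with median scaling (0.29) and with its second brightest probe (0.20). Leaving out each sample in turn gave -0.90 to 0.77 for Cd44, -0.33 to 0.63 for Lfng and 0.00 to 0.15 for Trh in that comparison, with the sign turned for Cd44 without OS6 or the OS1/OS2 mean and for Lfng and Trh without the OS4/OS5 mean, -0.17 to 0.98 for Cd44 between CSE and ESCs (turned without ES1), and -0.14 to 0.95 for Fabp3 between OS and CSE (turned without OS6). Counts moved as follows. Of the 10 genes, 1 was lower in OS than in ESCs with an offset of 50 or median scaling, and 2 were lower in CSE than in ESCs with the processed signal, median scaling, the 2 groups alone or the replicate block. With every array as a sample 1 was higher in OS4-6, and with the second brightest probe 1 was higher in OS than in CSE. Probes called higher and lower in OS than in CSE were 2322 and 2970, against 1308 and 1615 with median scaling, and 3676 were higher with every array as a sample. For OS4-6 against OS1-3, the 21 higher and 16 lower probes became 4 and 1 with an offset of 0, 60 and 37 with an offset of 50, 0 and 0 with the processed signal or OS samples alone, 38 higher with median scaling, 4 and 1 with the authors' log2 table, 12 and 9 with no dim filter, and 1555 and 1083 with every array as a sample. Leaving out each of the 9 samples in turn gave 1285 to 2629 probes higher and 1654 to 3335 lower in OS than in CSE, 0 to 188 higher and 0 to 537 lower in OS4-6, 3 to 5 of the 10 genes lower in OS than in CSE, 1 to 2 lower in OS and 1 to 2 lower in CSE than in ESCs, and 0 to 1 lower in OS4-6.

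The replicate numbers only name the samples. Same-numbered OS and CSE arrays had correlations of their deviations from the group means of 0.357, -0.342 and -0.393 for numbers 1 to 3, so they do not pair. A replicate block was fitted with every array as a sample, so OS1 and OS2 counted apart. Numbers 4 to 6 occur in OS only, and OS4 to OS6 therefore drop out of its difference between OS and CSE. It compares OS1 to OS3 with CSE1 to CSE3 and does not test all OS arrays. In that fit 4 of the 10 genes were lower in OS than in CSE, and Fabp3 turned to -0.84 (limma, adjusted p = 0.178). Signal over background limits Prox1, Trh and Emx2, which were near background in OS or ESCs. The signals of Lfng in OS (mean 5.95), Sparcl1 in ESCs (mean 5.92) and Bace2 in ES1 (5.56) were also low. Over 21 alternatives the difference of Lfng between OS and CSE ran from -3.63 to -2.12. Between OS and ESCs it ran from 9.48 to 11 for Sparcl1 and from 3.2 to 6.95 for Bace2, so the size of these folds is uncertain too.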
